A study of Mus musculus with 1203 samples.

Results

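Non-tuft cells in a tuft cell sort from mouse colon were compared with non-tuft cells sorted as epithelial onto the same plates. They were chosen by 3 measured values: at least 1000 genes above 0 TPM (a length-normalised share of the RNA measured in a cell), Trpm5 below 5 TPM and Dclk1 below 5 TPM, on the first plate of each of 7 plate sets. They numbered 86 in wells labelled tuft and 69 in wells labelled epithelial. Both gates together held 39.6% of the cells with at least 1000 genes on those plates, 18.1% of such cells in the whole series, and 12.9% of its 1203 wells. Low Trpm5 and Dclk1 therefore define the group and are not a finding. The 3 cells nearest the limits on the inside had 4.19 TPM Trpm5 with 0 TPM Dclk1, 0 TPM Trpm5 with 4.64 TPM Dclk1, and 4.68 TPM Trpm5 with 2.13 TPM Dclk1. The nearest outside had 8.79 and 5.89, 9.05 and 1.76, and 12.42 and 5.08 TPM of Trpm5 and Dclk1. Both genes were listed at 0 in 82 of the 86 tuft-gate cells and 66 of the 69 epithelial-gate cells.

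The study asked how loss of inositol polyphosphate multikinase in the gut epithelium affects colonic tuft cells and colitis. Colon cells of female mice aged 11 weeks were stained for dead cells, EPCAM (an epithelial surface protein) and SIGLEC-F (a sialic acid-binding surface receptor used to mark tuft cells), sorted singly into wells and profiled by a modified Smart-seq2, which makes cDNA of polyadenylated RNA 1 cell at a time. Plate sets 2, 4, 5 and 7 held VillinCre;IPMKf/f cells, in which Villin-driven Cre recombines floxed Ipmk in intestinal epithelial cells and would leave leukocytes intact, and plate sets 1, 3 and 6 held wt cells. What gate lay behind the label epithelial was not stated in the labels, and no animal is named. Each gate is thus 1 sample, no p-value is given, and SDs are between plates, which may be technical. The non-tuft tuft-gate cells comprised 37 VillinCre;IPMKf/f and 49 wt cells; those of the epithelial gate comprised 50 VillinCre;IPMKf/f and 19 wt cells.

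The colon surface is lined mainly by absorptive colonocytes and mucus-secreting goblet cells, which arise from dividing stem and progenitor cells at the crypt base. Tuft cells are rare chemosensory cells of the same lining: Trpm5 encodes their taste-pathway ion channel and Dclk1 a microtubule-linked kinase used as their marker. In mice SIGLEC-F is also carried by eosinophils, so a SIGLEC-F stain alone does not define an epithelial cell. Krt20, a keratin of differentiated surface cells, and Muc2, the main gel-forming mucin of goblet cells, separate the commonest alternatives.

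The 86 non-tuft cells were 28.6% of kept tuft-gate cells (exact 95% binomial interval 23.5% to 34.04%), those with at least 1000 genes, and the 69 of the epithelial gate were 76.7% of 90 kept cells (66.6% to 84.9%). All intervals given cover counting error only. In the tuft gate the share was 46.8% on plate set 6, with 29 of 62 cells, and between 17.02% and 39.1% on the other 6 plates. Without plate set 6 it was 23.8%. In the epithelial gate every kept cell of plate sets 2, 5 and 7 was non-tuft, against 6 of 20 on plate set 6. Plate set 6 was thus the only plate with a higher non-tuft share in the tuft gate than in the epithelial gate. By genotype, the tuft-gate share was 24.7% (37 cells) in VillinCre;IPMKf/f cells and 32.5% (49 cells) in wt cells. No plate holds both genotypes, so plate and genotype cannot be told apart.

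**Figure D1:**
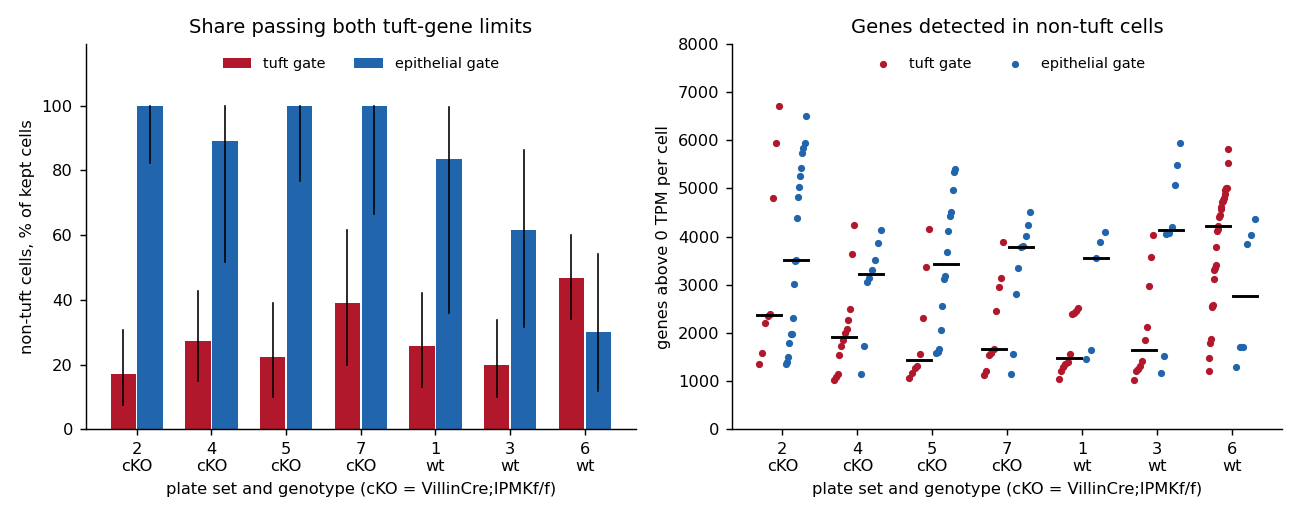
Left, share of kept cells that passed both tuft-gene limits (%, bars) by plate set and gate, with exact 95% intervals (lines); right, genes above 0 TPM in each non-tuft cell (points) with medians (black bars). Plate set 6 differs from the other 6 in both panels: the tuft gate has the higher bar and the higher median, 4225 against 2776 genes.

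Read depth cannot be read from TPM, so the number of genes detected stands in for it. Tuft-gate non-tuft cells had a median of 2408.5 genes (highest 6715), and epithelial-gate ones 3553 (highest 6501). The plot of genes detected shows lower tuft-gate medians on 6 plates and a higher one on plate set 6. The 18S ribosomal RNA entry took a median of 73.7% of TPM in the tuft gate and 71.6% in the epithelial gate, and mitochondrial genes took 4.59% and 4.66%.

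Ipmk, the gene targeted in the mutant mice, was not consistently lower in cells labelled VillinCre;IPMKf/f. In tuft-gate non-tuft cells its plate means were 11.2, 71.5, 15.0 and 18.1 TPM on VillinCre;IPMKf/f plates 2, 4, 5 and 7, against 8.77, 18.9 and 13.7 TPM on wt plates 1, 3 and 6. In epithelial-gate non-tuft cells they were 34.2, 1.38, 9.41 and 5.85 TPM on VillinCre;IPMKf/f plates, against 9.91, 2.09 and 9.71 TPM on wt plates. The genotypes overlapped in both gates. A TPM value covers the whole gene and which exons are floxed was not stated, so this is no check of the deletion. Cells labelled VillinCre;IPMKf/f are called so below only by their label.

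Colonocyte genes were the commonest program in both gates, at similar shares of the pooled cells. Krt20 reached 10 TPM, the level used here to call a cell positive, in 48 of 86 tuft-gate cells (55.8%, 44.7% to 66.5%) and 35 of 69 epithelial-gate cells (50.7%, 38.4% to 62.98%). The pooled difference was 5.09 points, and 13.8 points without plate set 6. Taken plate by plate, the difference averaged 8.79 points with an SD of 27.4, higher in the tuft gate on 5 plates and lower on 2. That SD describes single plates of few cells and is not the error of the average. Among cells excluded for their Trpm5 or Dclk1, Krt20 was positive in 12 tuft-gate cells (5.58%) and 0 of 21 epithelial-gate cells, which sets the level seen in cells that should lack it. At least 5 of 20 colonocyte markers reached 10 TPM in 63 tuft-gate cells (73.3%) and 51 epithelial-gate cells (73.9%), with a median of 10 markers per cell in each gate. All 43 tuft-gate cells with Krt20 but not Muc2 carried 7 to 19 of the 20 markers, and the 33 such epithelial-gate cells 7 to 20.

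**Figure D2:**
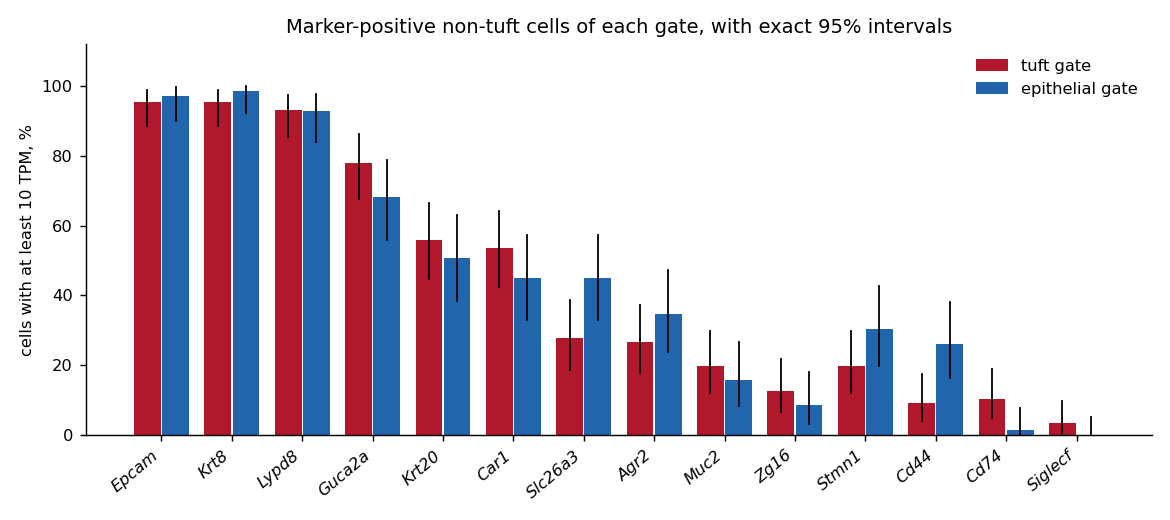
Share of non-tuft cells with at least 10 TPM (%, bars) for 14 marker genes in the tuft gate (86 cells) and the epithelial gate (69 cells), with exact 95% intervals (lines). Epcam and Lypd8 exceed 90% in both gates, Krt20 is at 55.8% and 50.7%, and Siglecf at 3.49% and 0%.

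The level of Krt20 was spread widely between plates. Its plate means in the tuft gate ran from 24.9 TPM (plate set 3) through a median of 64.001 to 328.3 TPM (plate set 7), and in the epithelial gate from 68.4 TPM (plate set 5) through 83.3 to 517.3 TPM (plate set 1). The tuft-gate mean was the lower on 6 of 7 plates, while the ranges of the gates overlapped. The mean within-plate log2 difference was −0.68 (SD 0.94, n = 7 plates), taken as log2(mean TPM + 1) in the tuft gate minus the epithelial gate. That is close to the median of −0.48 over all 3009 genes that reached 10 TPM in a gate, 76.8% of which were below 0.

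Other colonocyte genes varied around that shift. Guca2a, which encodes the intestinal hormone guanylin, was positive in 67 tuft-gate cells (77.9%) and 47 epithelial-gate cells (68.1%), with means of 2172 and 2550 TPM (log2 −0.36, SD 0.67). Lypd8, a surface protein that keeps bacteria off the colon lining, was positive in 93.02% and 92.8% (log2 −0.25, SD 0.93). Car1, a carbonic anhydrase of colonocytes, had plate means from 240.8 to 6674 TPM in the tuft gate, against 1210 to 3472 TPM in the epithelial gate (log2 −0.76, SD 1.59). All 20 members of the list reached 1 TPM; 6 were above 0 and 14 below, with a median log2 difference of −0.16 (SD 0.75) beside −0.31 over the 10300 genes at that level.

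Slc26a3, the chloride-bicarbonate exchanger of mature colonocytes, was the colonocyte gene with the widest gap in positive cells of those named here. It was positive in 24 of 86 tuft-gate cells (27.9%, 18.8% to 38.6%) and 31 of 69 epithelial-gate cells (44.9%, 32.9% to 57.4%). Among Krt20-positive cells the counts for Slc26a3 were 19 of 48 (39.6%) in the tuft gate and 26 of 35 (74.3%) in the epithelial gate. These cells were not matched for detection: those with Krt20 but not Muc2 had a median of 1793 genes in the tuft gate and 2804 in the epithelial gate. The part of detection in this gap was not tested. Averaged over plates the Slc26a3 gap was −12.6 points with an SD of 22.4 between plates. The share was lower in the tuft gate on 4 plates and higher on 1. Among cells with at least 2000 genes Slc26a3 was positive in 16 of 51 (31.4%) and 19 of 49 (38.8%). Slc26a3 was named after its values were seen.

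Goblet genes were seen in a smaller share of cells. Muc2 was positive in 17 of 86 tuft-gate cells (19.8%, 11.96% to 29.8%) and 11 of 69 epithelial-gate cells (15.9%, 8.24% to 26.7%), against 3 (1.40%) and 0 of 21 cells among those excluded for Trpm5 or Dclk1. The pooled difference was 3.83 points, and turned to −1.67 points without plate set 6. Taken plate by plate, the difference averaged 4.07 points with an SD of 25.5, higher in the tuft gate on 3 plates and lower on 3. At least 5 of 19 goblet markers were carried by 14 tuft-gate cells (16.3%) and 9 epithelial-gate cells (13.04%). Cells with Muc2 but not Krt20 carried 3 to 17 goblet markers, median 10.5, in the tuft gate and 1 to 16, median 10, in the epithelial gate. Muc2 levels in positive cells ran from 10.7 TPM through a median of 2187 to 45106 TPM in the tuft gate, and from 15.6 through 4906 to 13582 TPM in the epithelial gate. Below 50 TPM lay 2 of the 17 positive tuft-gate cells and 4 of the 11 positive epithelial-gate cells, with 1 to 4 goblet markers each.

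The plates with Muc2-positive cells differed between the gates. Muc2-positive cells occurred on plate sets 1, 2, 3, 5 and 6 in the tuft gate, and on plate sets 2, 3, 4 and 5 in the epithelial gate. Both such epithelial-gate cells of plate set 3 were near the limit of 10 TPM, at 31.8 and 28.6 TPM with 4 and 1 goblet markers. Muc2 was listed at 0 in an epithelial-gate cell with 10 goblet markers on plate set 3 and in 1 with 6 on plate set 7. Plate means of Muc2 ran from 0.53 TPM through a median of 1059.2 to 5724 TPM in the tuft gate, and from 0 through 9.15 to 3304 TPM in the epithelial gate. Zg16, a goblet lectin of the mucus layer, was positive in 11 and 6 cells (12.8% and 8.70%), and Tff3, the trefoil peptide secreted with mucin, in 7 and 7 (8.14% and 10.1%). Of the 18 goblet genes that reached 1 TPM, 16 had a difference above 0, with a median of 0.69. The SD between plates was 2.46, with plate set 4 at −4.02. Where a gate is listed at 0 on a plate, these values depend on the added 1 TPM.

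**Figure D3:**
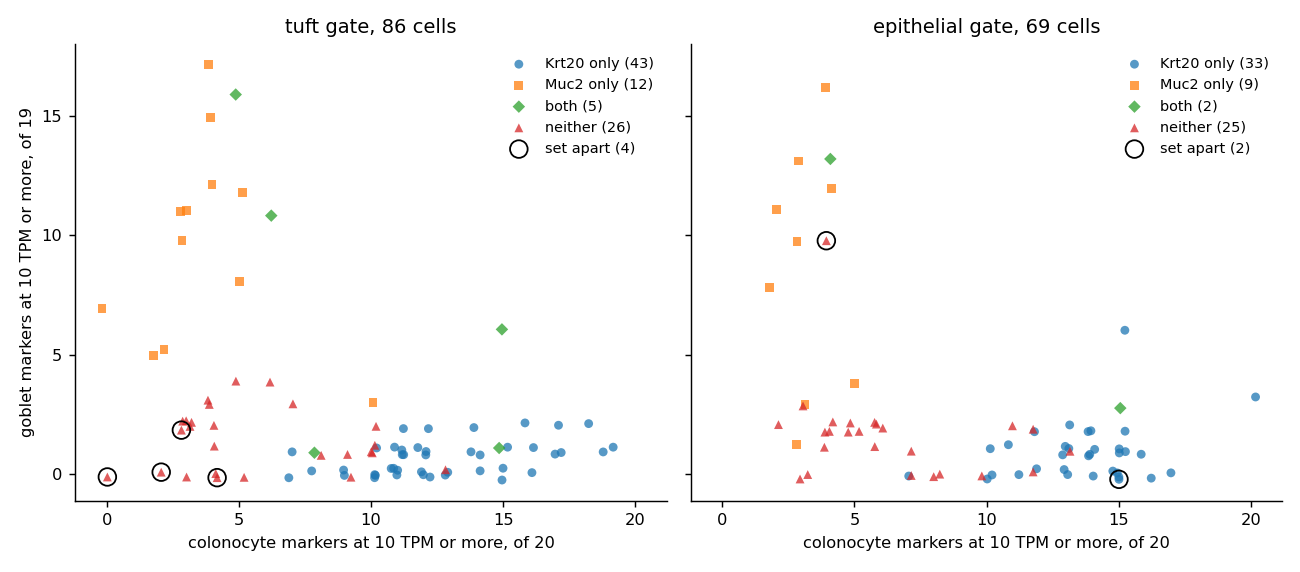
Number of goblet markers (y axis, of 19) against colonocyte markers (x axis, of 20) at 10 TPM or more in each non-tuft cell, tuft gate left and epithelial gate right, with symbols for the Krt20 and Muc2 classes and small random offsets. Both panels show 1 arm of Krt20 cells along the x axis and 1 of Muc2 cells along the y axis; circles mark the 6 cells set apart by leukocyte or tuft genes.

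Counted by both genes over all plates pooled, the makeup of the gates was close. Within plates the gates differed in both directions. Differences in positive share, tuft gate minus epithelial gate, ran from −38.5 to 33.3 points for Krt20 and from −37.5 to 30 points for Muc2. The gates also drew their cells from the plates in different proportions. Krt20 without Muc2 was seen in 43 tuft-gate cells (50.0%, 39.02% to 60.98%) and 33 epithelial-gate cells (47.8%, 35.6% to 60.2%). Muc2 without Krt20 was seen in 12 (14.0%) and 9 (13.04%), and both genes in 5 (5.81%) and 2 (2.90%). The plot of markers per cell shows the same arms in each gate. At least 5 markers from each of the colonocyte and goblet lists occurred in 5 tuft-gate cells and 1 epithelial-gate cell; a well that received more than 1 cell was not searched for. By genotype, Krt20 was positive in 24 of 37 VillinCre;IPMKf/f (64.9%) and 24 of 49 wt (48.98%) tuft-gate cells, and in 25 of 50 (50.0%) and 10 of 19 (52.6%) epithelial-gate cells. Muc2 was positive in 5 (13.5%) and 12 (24.5%) tuft-gate cells, and in 9 (18%) and 2 (10.5%) epithelial-gate cells, of those same genotypes. All of these intervals overlap between gates within a genotype.

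Neither gene was positive in 26 tuft-gate cells (30.2%, 20.8% to 41.1%) and 25 epithelial-gate cells (36.2%, 25% to 48.7%). Epcam was positive in 25 of these 26 tuft-gate cells and 24 of these 25 epithelial-gate cells. At least 5 of 12 pan-epithelial genes were carried by 23 and 25 of them, and the 26 include 2 cells with 5 or more leukocyte genes, described below. At least 5 colonocyte markers were carried by 12 (46.2%) and 16 (64%) of them, and at least 5 of 18 cell cycle genes by 8 (30.8%) and 8 (32%). In the tuft gate all 8 cells of the 86 with 5 or more cell cycle genes fell in this class, against 8 of 12 in the epithelial gate. The other 4 were Muc2-positive, 3 of them near the limit at 15.6, 31.8 and 28.6 TPM with 3, 4 and 1 goblet markers. The remaining cell had 5164 TPM of Muc2 and 10 goblet markers. Stmn1, a microtubule regulator high in dividing cells, was positive in 13 (50.0%) and 17 (68%) of them.

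Genes of the crypt base were less frequent in the tuft gate by count. At least 5 of 12 stem and progenitor genes reached 10 TPM in 3 of 86 tuft-gate cells (3.49%, 0.73% to 9.86%) and 10 of 69 epithelial-gate cells (14.5%, 7.17% to 25.04%). Among cells with at least 2000 genes the counts were 3 of 51 (5.88%) and 10 of 49 (20.4%), and without plate set 6 they were 1 of 57 and 10 of 63. By plate they were uneven, at 0 of 8 and 5 of 19 on plate set 2 and, the other way, 2 of 29 and 0 of 6 on plate set 6. The epithelial-gate cells also include the cell of plate set 3 with 12 tuft genes, described below. Cd44, an adhesion receptor enriched near the crypt base, was positive in 8 tuft-gate cells (9.30%, 4.10% to 17.5%) and 18 epithelial-gate cells (26.1%, 16.3% to 38.1%), lower in the tuft gate on 6 of 7 plates by share. All 11 stem and progenitor genes that reached 1 TPM had differences below 0, median −0.83 with an SD of 1.55 between plates, and 16 of 17 cell cycle genes did, median −0.79 with an SD of 1.64. Of all 10300 genes at that level, 69.1% were below 0, with a median of −0.31. The rule of size given below needs 10 TPM in a gate. That level was reached by 0 stem and progenitor genes and by 4 cell cycle genes, none of which met the rule. On plate set 6 the cell cycle median was 2.52. Lgr5, the stem cell receptor, was positive in 0 of 86 cells, which allows a share of positive cells of up to 3.49% taken as 3 cells of 86, or 4.20% by the exact interval, and in 2 of 69. Fewer genes were detected in the tuft gate on the same 6 plates; the part of detection in these counts was not tested.

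**Figure D4:**
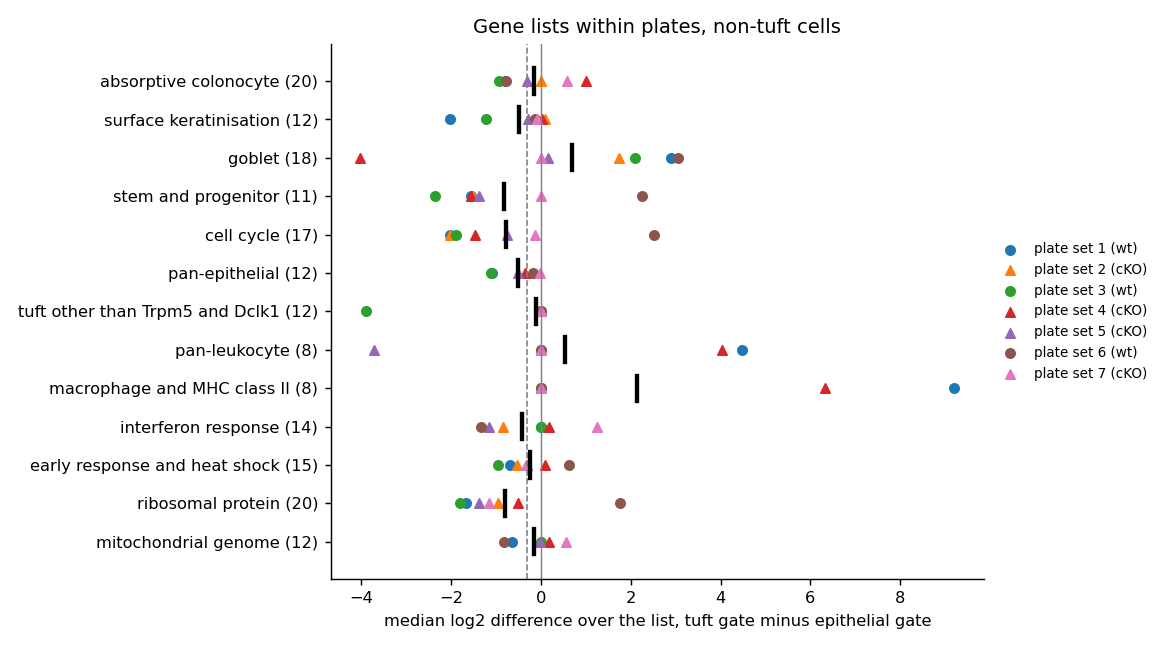
Median log2 difference over the measured members of 13 gene lists (number of members in brackets), tuft gate minus epithelial gate, for each plate (points) and for the mean over plates (black bars); the dashed line is the median of all 10300 genes at 1 TPM. The spread between plates exceeds the distance from the dashed line for most lists, and the macrophage and MHC class II list stands at 2.13 through plate sets 1 and 4.

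Siglecf, the gene for the stained receptor, was almost absent from non-tuft cells of the tuft gate. It was positive in 3 of 86 tuft-gate cells (3.49%, 0.73% to 9.86%) and 0 of 69 epithelial-gate cells, which allows a share of up to 4.35% taken as 3 cells of 69, or 5.21% by the exact interval. The other 83 tuft-gate cells were listed at 0. Among the cells excluded for their Trpm5 or Dclk1, Siglecf was positive in 71.2% of tuft-gate cells (64.6% to 77.1%) and 14 of 21 epithelial-gate cells (66.7%, 43.03% to 85.4%). The 3 positive cells had 24.3 TPM on plate set 1 and 16.3 and 298.8 TPM on plate set 6; the highest epithelial-gate value was 7.35 TPM on plate set 5. Both Siglecf cells of plate set 6 also had Krt20, at 86.8 and 1508 TPM, and 9 colonocyte markers each. The cell with 298.8 TPM Siglecf also carried 2 of 9 pan-leukocyte genes, at 98.9 TPM summed, and 2 of 24 tuft genes. The mean log2 difference was 0.68 (SD 1.48), and 0.19 without plate set 6. Surface SIGLEC-F was not recorded per cell in the files used here, so stain and transcript cannot be compared in the same cell.

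Eosinophil genes gave no other candidates for the stain. Besides Siglecf, Epx, Prg2 and Ccr3, which encode eosinophil granule proteins and the eotaxin receptor, were listed at 0 in all cells of both gates. B and plasma cell and stromal lists had no member at 1 TPM in either gate. The enteroendocrine list had 1, and no cell carried 5 of its 14 genes.

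At least 5 leukocyte genes were carried by 3 single cells. In the tuft gate, 1 cell each of plate sets 1 and 4 carried 7 and 8 of 9 pan-leukocyte genes and 9 and 8 of 11 macrophage and MHC class II genes, with 2 of 12 pan-epithelial genes each. Cd74, the invariant chain of MHC class II, stood at 15937 and 14279 TPM in them, and Lyz2, the lysozyme of myeloid cells, at 18703 and 33.5 TPM. Epcam was nevertheless 181.8 and 17.8 TPM in these cells, and the first was the Siglecf-positive cell of plate set 1. In the epithelial gate, 1 cell of plate set 5 carried all 9 pan-leukocyte genes and 3 of 12 T and NK cell genes together with 15 colonocyte markers. These cells go against the label non-tuft epithelial, and no cell type was assigned to them. Pan-leukocyte list sums ranged over plates from 0 to 622.8 TPM in the tuft gate and from 0 to 170.96 TPM in the epithelial gate, and 83 of 86 and 68 of 69 cells carried none of the 9 genes at 10 TPM.

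Lower levels of MHC class II were seen in other cells, most of them with an epithelial profile. Cd74 was positive in 9 of 86 tuft-gate cells (10.5%, 4.90% to 18.9%) and 1 of 69 epithelial-gate cells (1.45%, 0.037% to 7.81%). Of the 9, 2 were the leukocyte-marked cells above, and the other 7 had 31.5 to 186.6 TPM of Cd74 with 4 to 12 pan-epithelial genes; 6 of these came from plate set 6 and 1 from plate set 4. The epithelial-gate cell, also from plate set 6, had 268.7 TPM. On plate set 6 the share was 20.7% (6 of 29) in the tuft gate and 16.7% (1 of 6) in the epithelial gate. H2-Ab1, a class II chain, was at 23.9 to 164.3 TPM in 6 of those 7 cells and at 73.8 TPM in the epithelial-gate cell. The profile was less clear in 2 of the 7. The plate set 4 cell had 4 pan-epithelial genes and Epcam at 6.34 TPM, below the positive level. The cell with 186.6 TPM of Cd74 had H2-Ab1 listed at 0 and carried 2 pan-leukocyte genes. Over the list, the median log2 difference was 2.13, and 0.25 without the 6 set-apart cells.

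Tuft genes other than Trpm5 and Dclk1 were mostly absent. The limits on Trpm5 and Dclk1 also remove cells rich in these genes from both gates. Their low level is thus a description and no check of the label. None of 24 such genes reached 10 TPM in 68 of 86 tuft-gate cells and 57 of 69 epithelial-gate cells. The clearest exception was an epithelial-gate cell of plate set 3 with 5945 genes, 12 of the 24 tuft genes, Pou2f3 (the tuft cell transcription factor) at 161.5 TPM and Avil (an actin-binding protein of tuft cells) at 707.3 TPM. That cell also carried 10 goblet and 9 stem and progenitor genes. In the tuft gate 4 cells carried 4 or more tuft genes: 2 on plate sets 5 and 6, with 4 tuft genes and 9 and 10 pan-epithelial genes, and the 2 leukocyte-marked cells of plate sets 1 and 4, with 5 and 4. Pou2f3 was listed at 0 in all 86 tuft-gate cells. Ptpn6, a phosphatase shared by tuft cells and leukocytes, had means of 26.97 and 23.9 TPM (log2 0.29, SD 3.35).

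Gene by gene, few differences repeated on every plate. A gene was counted when it differed at least 2-fold within plates on average and had the same sign on all 7. Of the 3009 genes, 1 was higher in the tuft gate (0.0332% of genes tested) and 34 were lower (1.13%). By sign alone, at any size, 49 were lower on all 7 plates and 1 was higher. Whether that is more than random signs would give was not tested, so the genes named below are given as values only. With each plate centred on its own median the full rule gave 22 higher and 25 lower. Centring by itself moves the directions towards balance. Without plate set 6, where the sign had to hold on only 6 plates, 9.38% of genes tested were lower and 11 genes (0.350%) higher. Plate set 6 was the plate whose median over all genes was 0.65 where the other 6 had −1.29 to −0.10. No list member that reached 10 TPM met the rule, and some lists, such as stem and progenitor genes, had none to test.

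Adam15, a membrane-anchored metalloprotease of epithelial cells, was the gene higher in the tuft gate. Plate means of Adam15 ran from 5.44 TPM (plate set 6) through a median of 27.9 to 97.5 TPM (plate set 5) in the tuft gate, and from 1.82 TPM (plate set 6) through 8.50 to 21.4 TPM (plate set 3) in the epithelial gate. The tuft gate was higher within each plate, although the ranges overlap across plates. The highest tuft-gate cell, at 775.8 TPM, lay on plate set 5 and made up nearly all of the tuft-gate mean there. The sign on that plate thus rests on that single cell. Over all non-tuft cells the median of Adam15 was 0 TPM in both gates. The mean log2 difference was 1.82 (SD 0.69). It was positive in 26 of 86 (30.2%) and 15 of 69 (21.7%) cells. Among cells with at least 2000 genes the Adam15 difference was −0.16, and it is given as a value only.

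**Figure D5:**
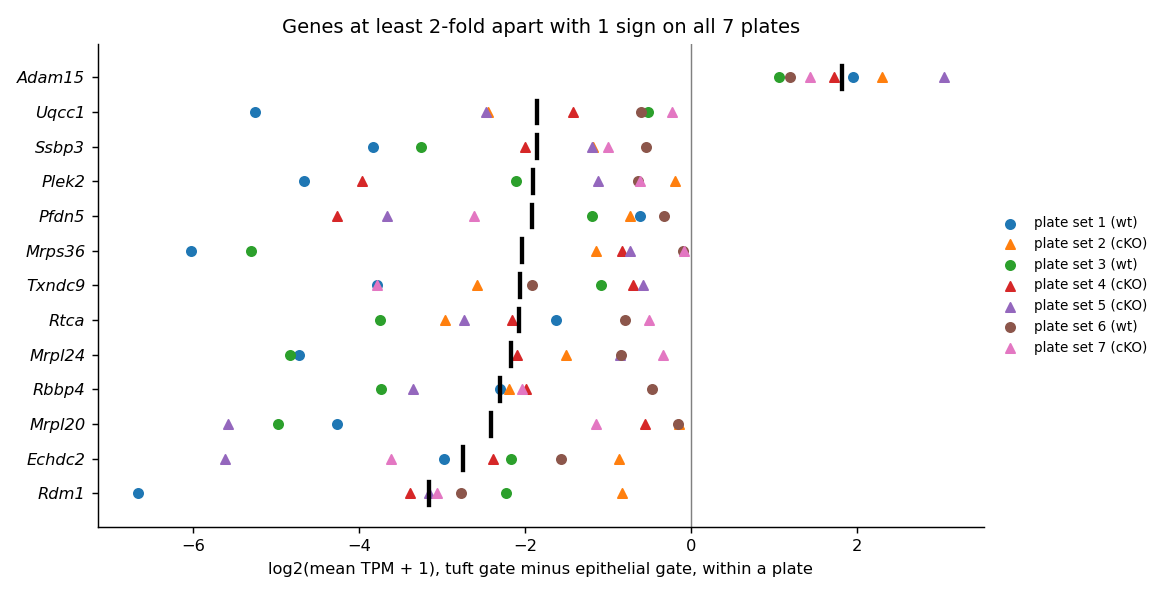
Within-plate log2 differences, tuft gate minus epithelial gate, for Adam15 and the 12 named genes with the lowest values (points, 7 plates; black bars, means). Every point lies on 1 side of 0 by the rule of choice; the spread within a gene is up to 6 log2 units.

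The 12 lower genes named by size had varied functions. Rdm1, linked to DNA repair and recombination, had plate means of 0 through 1.27 to 7.03 TPM in the tuft gate, against 7.33 through 22.7 to 100.1 TPM in the epithelial gate (log2 −3.16, SD 1.77); the ranges did not overlap. Echdc2, a mitochondrial enoyl-CoA hydratase-like protein, averaged 3.57 and 24.1 TPM (log2 −2.74). Mrpl20, Mrpl24 and Mrps36, named as mitochondrial ribosomal proteins, averaged 14.2 and 50.97, 9.12 and 33.8, and 14.0 and 37.4 TPM (log2 −2.40, −2.17 and −2.03). Pfdn5, a prefoldin subunit that helps fold actin and tubulin, was the most abundant, from 5.74 to 128.8 TPM over plates in the tuft gate and from 84.3 to 885.4 TPM in the epithelial gate (log2 −1.91, SD 1.59).

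The other 6 genes averaged under 10 TPM in the tuft gate. Rbbp4, a histone chaperone, averaged 1.89 and 12.4 TPM, Txndc9, a thioredoxin-fold protein, 5.47 and 23.4 TPM, and Rtca, an RNA cyclase, 3.91 and 14.9 TPM. Plek2, a cytoskeletal pleckstrin, averaged 2.70 and 10.8 TPM, Ssbp3 2.25 and 10.1 TPM, and Uqcc1, an assembly factor of respiratory complex III, 7.27 and 18.3 TPM. Their log2 differences lay between −2.30 and −1.85. In each case the tuft-gate mean was lower on all 7 plates, which the rule required.

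Genes shared by all epithelial cells were also lower in the tuft gate, each by less than 2-fold. All 12 pan-epithelial genes had differences below 0, and their median was below 0 on all 7 plates (−0.52, SD 0.45). Krt8, a keratin of simple epithelia, had plate means of 284.6 to 1479 TPM in the tuft gate and 412.05 to 1648 TPM in the epithelial gate (log2 −0.75, SD 0.45), and Krt19 averaged 509.002 and 858.5 TPM (log2 −0.73, SD 0.50); both were lower on 7 of 7 plates. Epcam, the other stained protein, was positive in 82 of 86 (95.3%) and 67 of 69 (97.1%) cells (log2 −0.68, SD 0.80). The pan-epithelial median is at the median of all tested genes, −0.48, and it was −0.11 with each plate centred on its own median.

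Ribosomal protein genes lay below the general shift. All 20 were below 0, with a median of −0.81 (SD 1.22), and the list median was below 0 on 6 plates and at 1.76 on plate set 6. Without plate set 6 it was −1.21. Rps14 was positive in 49 of 86 (56.98%) tuft-gate cells and 54 of 69 (78.3%) epithelial-gate cells, and was listed at 0 in 37 and 15. Whether such zeros come from detection or from the kind of cell was not tested. An absent marker in a single cell is therefore not read as absence of expression.

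Lists of cell state genes differed between gates by less than the SD between plates. That SD describes single plates and is not the error of the average, so a difference is neither shown nor excluded. The interferon response list had a median of −0.43 (14 of 16 genes measured, SD 0.90), and early response and heat shock genes −0.24 (15 of 15, SD 0.53). The surface keratinisation list, genes of the outermost differentiated colonocytes and of injured epithelium, had −0.48 (12 of 12, SD 0.80). Sprr2a2, a small proline-rich protein, was positive in 55 of 86 (63.95%) and 44 of 69 (63.8%) cells. Plac8, another gene of surface cells, averaged 91.7 and 183.7 TPM and was lower on 7 of 7 plates (log2 −0.96, SD 0.77), just under the 2-fold limit. Mitochondrial genes had a median of −0.15 (12 of 13, SD 0.48).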

How the data were processed

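The deposited table gives TPM for 46517 genes in each well; the authors' values were used as they stand. Build mm10, RSEM 1.3.3 and Bowtie2 2.4.2 are listed in the submitters' processing notes; the sources used here do not give settings, annotation release, strand or read depth. TPM of close paralogs and pseudogenes is uncertain. Groups came from the labels. Means of TPM were taken per gate and plate, and log2(mean TPM + 1) was differenced within each of 7 plates and averaged, in Python 3.11.15 with numpy 2.4.6, pandas 2.3.3 and scipy 1.17.1. The code was tested on simulated data. Genes needed 10 TPM in a gate, and list members 1 TPM. Since no animal is named, no p-value was computed. The pairing is by plate, which both gates share per the well labels.

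Named are Krt20, Muc2, Siglecf, Epcam, Trpm5, Dclk1 and Ipmk, up to 12 genes per direction by size, and list members by level. Slc26a3, Lgr5, Prg2 and Pou2f3 fell outside these rules and were named after their values were seen. Symbols of Gm plus digits and pseudogenes are counted but not named. The members and the 20 gene lists were chosen with earlier results of these data known. Alternatives centring plates, leaving out set-apart cells (at least 5 pan-leukocyte or 4 tuft genes) and weighting plates equally were chosen after seeing the data. Doublets were not called.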

Additional observations from a re-analysis of the deposited data

Results flagged for a closer look

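In 4 measures the value of 1 plate stood far from the other 6, by the gap to its nearest neighbour relative to the whole range (Dixon's criterion). Chance alone would mark about 1 in 20 such groups. Many more measures than these 4 were screened, so being marked is no finding by itself. The goblet list median was −4.02 on plate set 4, the lowest of the 7: there the tuft gate held no Muc2-positive cell among 12 and the epithelial gate held 3 among 8. The cell cycle list median was 2.52 on plate set 6, the highest, where 5 of 29 tuft-gate cells and 0 of 6 epithelial-gate cells carried at least 5 cell cycle genes. The median for tuft genes other than Trpm5 and Dclk1 was −3.90 on plate set 3, the lowest, the plate of the epithelial-gate cell with 12 such genes. That median was 0 on each of the other 6 plates, so any other value would have been marked. The difference in median genes detected was 1449 on plate set 6, the highest, with medians of 4225 genes in the tuft gate and 2776 in the epithelial gate.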

How the results depend on the processing

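Counts of genes were the least stable values, given here as a percentage of genes tested (0.0332% higher and 1.13% lower in the tuft gate as reported). Pooling cells without the replicate block, that is without pairing gates by plate, gave 5.77% higher and 12.8% lower, and a Siglecf difference of 2.16. Higher genes were 0.0702% with a floor of 500 genes per cell, 0.0841% with 2000 genes per cell, 0.102% with Trpm5 and Dclk1 listed at 0 and likewise with 5 tuft genes below 5 TPM, 0.104% without the set-apart cells, 0.0777% with a floor of 1 TPM, 0.731% with centred plates, 0.251% with rescaled TPM, 1.48% on VillinCre;IPMKf/f plates and 3.57% on wt plates. Averaging log2 values over cells gave 0 higher genes and 1.83% lower; no p-value was computed. Lower genes were 0.332% with a pseudocount of 10 TPM, 0.492% with rescaled TPM, 0.689% with a floor of 1 TPM, 10.1% on VillinCre;IPMKf/f plates and 10.9% on wt plates. Leaving out 1 plate set gave 0.0688% to 0.350% higher and 1.45% to 9.38% lower. The rule needs the same sign on every plate used, so it is looser with fewer plates. With pooled cells only the 2-fold limit remains. Such percentages cannot be set directly against those from 7 plates. The goblet median was 3.43 on wt plates alone. The Adam15 difference was −0.16 with 2000 genes per cell. Causes beyond the number of plates in the rule were not tested. Leaving out 1 plate set gave a non-tuft share of 23.8% to 30.7%, a Krt20 difference of 1.31 to 13.8 points, a Muc2 difference of −1.67 to 9.86 points, and a Siglecf difference of 0.19 to 0.89. List medians then ran from −0.32 to −0.06 (colonocyte), 0.32 to 1.69 (goblet), −1.39 to −0.52 (cell cycle) and −0.40 to 0.75 (other tuft genes). Read depth is unknown, so absence of a marker is limited by detection.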
